A study of Ovis aries with 16 samples.

Results

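FABP4 and ADIPOQ are marker genes of mature adipocytes, and each was followed here through 1 transcript, ENSOART00020027055 for FABP4 and ENSOART00020000499 for ADIPOQ. They are 2 of the 35219 transcripts of the deposited table. They were picked by the identifiers that the study printed for them. RNA was sequenced from the perirenal adipose tissue of near-term sheep fetuses, 1 library per fetus and 4 fetuses in each of 4 groups. Male fetuses formed the groups MC (control) and MFGR (growth-restricted), and female fetuses the groups FC and FFGR. All were singletons of crossbred Columbia-Rambouillet ewes. The ewes of MFGR and FFGR fetuses were housed in high ambient heat for part of gestation (treatment "Hyperthermia" in the labels), which makes the placenta insufficient, and the ewes of MC and FC fetuses were kept at moderate temperature and fed the same amount ("Control"). The growth restriction of this model therefore comes together with maternal heat and reduced placental supply, and these cannot be told apart.

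FABP4 is a small cytosolic protein that binds fatty acids and carries them between membranes, lipid droplets and the nucleus. Its gene is a direct target of PPARG, the nuclear receptor that drives fat cell differentiation. ADIPOQ encodes adiponectin, a hormone that adipocytes secrete as multimers and that acts on liver and muscle through the receptors ADIPOR1 and ADIPOR2. Both genes are switched on as preadipocytes become adipocytes, which is why they serve together as markers of that step. Perirenal fat of the late sheep fetus is largely brown fat, which burns lipid for heat through the mitochondrial protein UCP1.

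Levels are given in TPM, each transcript's share of its library corrected for transcript length, so that FABP4 and ADIPOQ can be set against each other in 1 library. Every library sums to the same total, TPM keeps no read counts, and the depth behind each value is unknown. Between 20153 and 21917 transcripts were above 0 in a library. In the ARS-UI_Ramb_v3.0 assembly of RefSeq, FABP4 lies in a cluster with other genes of its family, with FABP12 beside it on one side and FABP5 farther off on the other. Whether reads of these relatives were counted to FABP4 was not tested. ADIPOQ lies between ST6GAL1 and RFC4. The tissue label was borne out by its markers, since FABP4, ADIPOQ and UCP1 were each at 1317 TPM or more in all 16 libraries. In bulk tissue, fewer cells of a type and less RNA per cell cannot be told apart.

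FABP4 was among the most abundant transcripts, and its level varied widely between fetuses. It ranked between 10 and 84 among all transcripts of a library. In MC the 4 libraries had 1416, 1809, 2553 and 4002 TPM. In MFGR they had 3216, 4596, 6178 and 10071 TPM. In FC they had 2200, 3637, 4616 and 10369 TPM, and in FFGR 1801, 2237, 2251 and 2796 TPM. The FFGR libraries lay close together, whereas the highest FC library was 4.71 times the lowest. The highest library of all was the third replicate of FC, and the first replicate of MFGR was next to it. From the lowest to the highest of the 16 libraries the range was 7.32-fold.

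ADIPOQ was as abundant but far steadier. It ranked between 25 and 91. Its 4 MC libraries had 2197, 2311, 2322 and 2388 TPM, the narrowest range of the 4 groups at 1.09-fold. The MFGR libraries had 1746, 1786, 2208 and 2321 TPM. In FC the values were 1741, 2392, 2633 and 3293 TPM, and in FFGR 1953, 2774, 2901 and 3167 TPM. ADIPOQ spanned 1.89-fold over all 16 libraries, and the lowest value belonged to the FC library in which FABP4 was highest. On the log2 scale, the spread around the group means was 0.68 for FABP4, which was more than that of 91.5% of the 4574 transcripts tested. For ADIPOQ it was 0.27, near the median of 0.25.

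**Figure D1:**
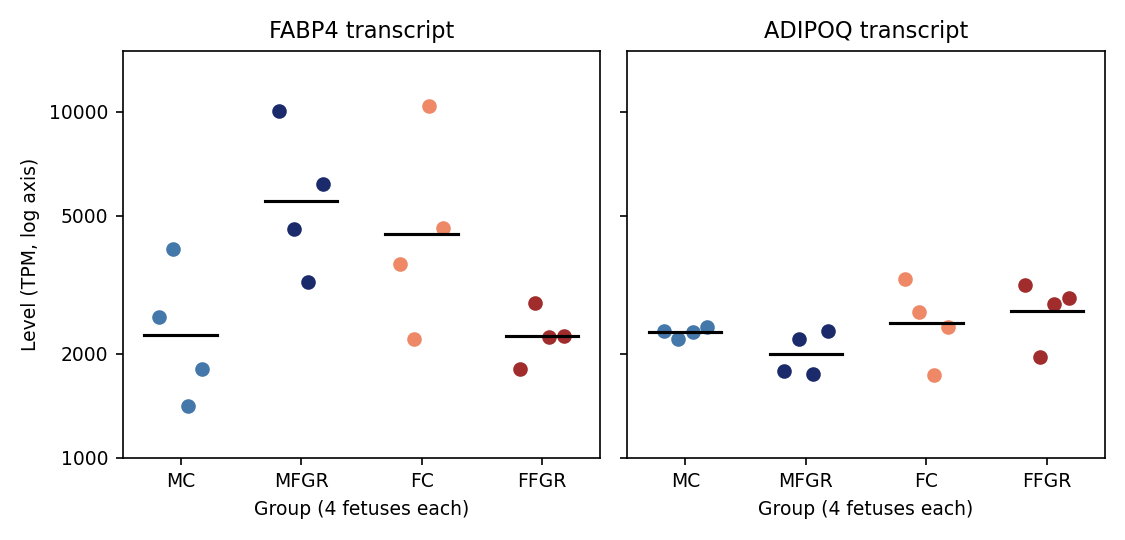
Level of FABP4 (left) and ADIPOQ (right) in TPM on a shared log axis, by group, with 1 point per fetus and a line at the geometric mean of the 4 libraries. FABP4 spans 1416 to 10369 TPM, whereas ADIPOQ stays between 1741 and 3293 TPM.

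The order of the mean levels was not the same for both transcripts. FABP4 averaged 6015 ± 2962 TPM in MFGR, 5205 ± 3582 in FC, 2445 ± 1140 in MC and 2271 ± 408 in FFGR (SD, n = 4). ADIPOQ averaged 2699 ± 524 TPM in FFGR, 2514 ± 641 in FC, 2305 ± 79.0 in MC and 2015 ± 292 in MFGR (SD, n = 4). The group highest in FABP4 was thus lowest in ADIPOQ, and the group lowest in FABP4 was highest in ADIPOQ. For neither transcript did neighbours in these orders differ by more than the sum of their SDs.

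Growth restriction in males was compared first, by setting MFGR against MC. Differences were fitted in limma on log2(TPM + 1) for the 4574 transcripts that reached 20 TPM in 3 or more libraries. A call needed a fold above 1.5 and a p under 0.05 after Benjamini-Hochberg adjustment. In this comparison 0.459% of the transcripts were called, 0.219% as higher in MFGR. FABP4 had a log2 difference of 1.28 ± 0.44 (SE), or 2.43-fold, with a 95% interval from 1.27-fold to 4.66-fold. Its unadjusted p was 0.0106, where 17.7% of all transcripts had one under 0.05, and its limma adjusted p of 0.145 did not pass, nor did it under any alternative run (0.0765 to 0.451). The ranges overlapped in 1 place, since the second replicate of MC was above the third of MFGR, and 9.71% of all transcripts had ranges that did not overlap. For ADIPOQ the log2 difference was -0.20 ± 0.18 (SE), with an interval from -0.59 to 0.18 (limma adjusted p = 0.591). The interval ran from 1.51-fold lower to 1.14-fold higher ADIPOQ.

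In females, FFGR against FC, the difference of FABP4 had the opposite sign. The log2 difference was -0.98 ± 0.44 (SE), a level 1.97-fold lower in FFGR, with an interval from 3.77-fold to 1.03-fold lower. The unadjusted p was 0.0415, where 7.37% of the transcripts had one under 0.05, and the limma adjusted p was 0.652. At the call thresholds 0% of the transcripts passed in this comparison. The difference leaned on the third replicate of FC and was -0.57 on the log2 scale without it. ADIPOQ had a log2 difference of 0.12 ± 0.18 (SE, limma adjusted p = 0.939), with an interval from -0.27 to 0.50.

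The male and the female difference of FABP4 were then set against each other, as MFGR minus MC less FFGR minus FC. This value was 2.26 ± 0.62 (SE) on the log2 scale, with an interval from 0.94 to 3.59. Its unadjusted limma p was 0.00244, but over all transcripts the adjusted p was 0.272, and 0% of the 4574 passed. An unadjusted p under 0.05 was reached by 11.2% of them. Leaving out any 1 library kept the FABP4 difference between 1.85 and 2.60. For ADIPOQ the same value was -0.32 ± 0.26 (SE, limma adjusted p = 0.636), and it was -0.16 without the third replicate of FC. Averaged over both sexes, growth restriction left FABP4 at a log2 difference of 0.15 (exact permutation within each sex, two-sided, p = 0.744) and ADIPOQ at -0.04 (exact permutation, p = 0.74).

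The sexes were then compared within each condition. In control fetuses, MC against FC, FABP4 had a log2 difference of -0.97 ± 0.44 (SE), 1.96-fold lower in males, and did not pass (limma adjusted p = 0.0878). The ranges overlapped. Here 28.8% of the transcripts were called, 6.23% as higher and 22.6% as lower in males, 50.8% had an unadjusted p under 0.05, and 37.1% had ranges that did not overlap. Without the second replicate of MC (-1.24, adjusted p = 0.0388) or the second of FC (-1.30, adjusted p = 0.0244) it was called, and without the third of FC the difference was -0.56. ADIPOQ had -0.09 ± 0.18 (SE, adjusted p = 0.717), and its sign turned to 0.11 with median-of-ratios scaling and to 0.042 when TPM were rescaled without the mitochondrial transcripts. The 11 mitochondrial transcripts summed to 392530 ± 35512 TPM in MC and to 334336 ± 42760 TPM in FC (SD, n = 4).

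In growth-restricted fetuses, MFGR against FFGR, FABP4 was higher in males and was called. The log2 difference was 1.29 ± 0.44 (SE), or 2.45-fold with an interval from 1.28-fold to 4.69-fold (limma adjusted p = 0.0257). The lowest MFGR library had 3216 TPM and the highest FFGR library 2796 TPM, so the ranges did not overlap. In this comparison 30.1% of the transcripts were called, 6.49% as higher and 23.6% as lower in males, 52.2% had an unadjusted p under 0.05, and the ranges did not overlap for 42.3%. The FABP4 call did not hold without replicate 1 (adjusted p = 0.0857) or 4 (0.0573) of MFGR, without replicate 1 (0.0645) or 3 (0.0505) of FFGR, or with no filter on low transcripts (0.0787). ADIPOQ had a log2 difference of -0.41 ± 0.18 (SE), 1.33-fold lower in males, with an interval from -0.80 to -0.02 and a limma adjusted p of 0.0797. It was -0.21 with median-of-ratios scaling.

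**Figure D2:**
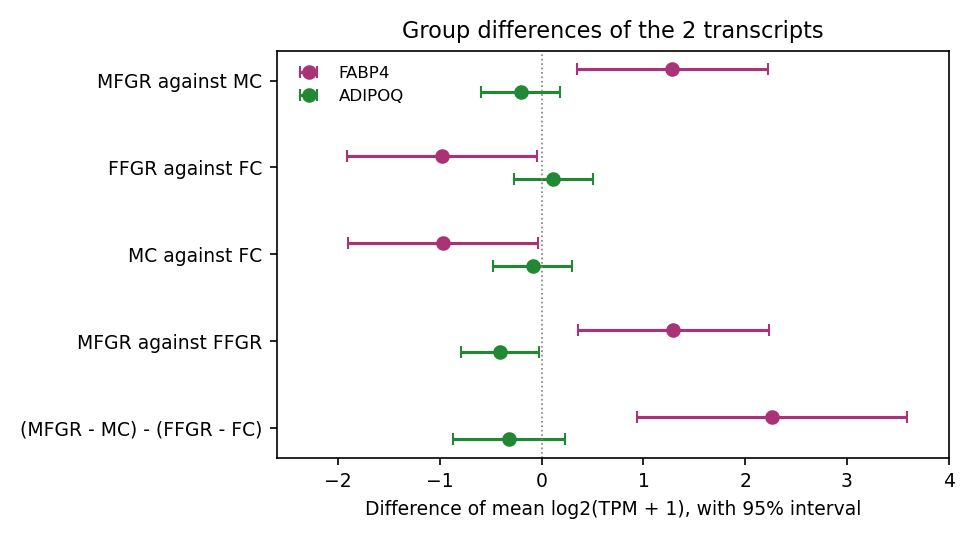
Differences of mean log2(TPM + 1) for FABP4 and ADIPOQ in the 4 comparisons and for the difference between male and female responses, with 95% intervals from limma. FABP4 lies at 1.28 in males and at -0.98 in females with growth restriction, and ADIPOQ lies between -0.41 and 0.12 in the 4 comparisons.

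The ratio of FABP4 to ADIPOQ within a library does not depend on how libraries are scaled to each other. In MC it was 0.613, 0.758, 1.10 and 1.82. In MFGR it was 1.84, 2.08, 2.66 and 5.64, so that FABP4 exceeded ADIPOQ in 4 of 4 libraries. The FC libraries had ratios of 0.836, 1.10, 1.93 and 5.96, and the FFGR libraries 0.569, 0.776, 0.806 and 1.43. FABP4 exceeded ADIPOQ in 2 MC, 3 FC and 1 FFGR library.

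In males MFGR had a mean log2 ratio of 1.46 ± 0.72 and MC one of -0.03 ± 0.69 (SD, n = 4), a 2.81-fold difference (two-sided exact permutation test, p = 0.0286). No smaller p can be reached with 4 libraries in each group. The ranges were apart by little, with 1.84 as the lowest ratio of MFGR and 1.82 as the highest of MC. Ratios to ADIPOQ that did not overlap between these groups were found for 9.93% of the 4573 tested transcripts other than ADIPOQ, a set that includes FABP4. In females the mean log2 ratio was -0.24 ± 0.56 in FFGR and 0.85 ± 1.25 in FC (SD, n = 4, exact permutation test, p = 0.143). MC against FC gave a log2 difference of -0.88 (exact permutation test, p = 0.229), and 23.3% of the 4573 transcripts had ratios to ADIPOQ that did not overlap there. MFGR against FFGR gave 1.71 (exact permutation test, p = 0.0286, again the smallest possible), where 24.7% of the 4573 transcripts had ratios that did not overlap. The male and the female response of the ratio differed by 2.58 on the log2 scale (exact permutation within each sex, two-sided, p = 0.00612). This relabelling takes growth restriction to have no effect in either sex, which is not the same as equal effects in both. Adjusted over the 8 exact tests of these transcripts and their ratio, the difference between the responses had p = 0.0490, and both single comparisons at p = 0.0286 had 0.0762. These comparisons share libraries with each other and with the fits of FABP4 above.

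**Figure D3:**
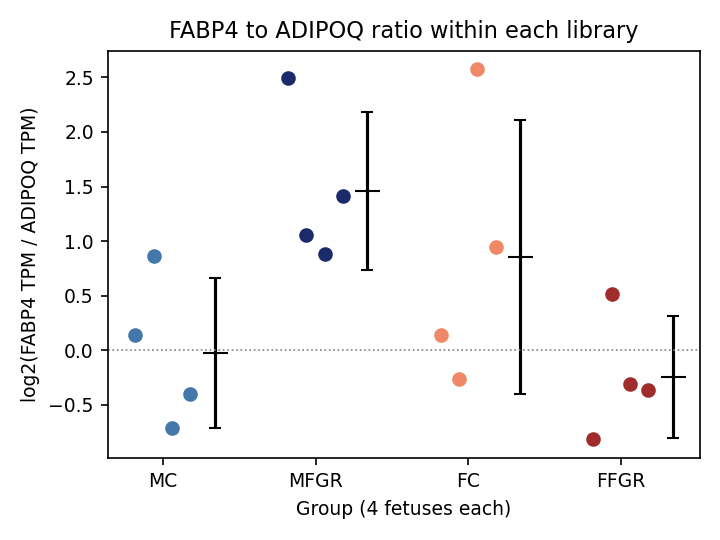
Log2 of the ratio of FABP4 to ADIPOQ in each library by group, with 1 point per fetus and, beside the points, the mean with SD of 4 libraries. All 4 MFGR points lie above the 4 FFGR points, and above the 4 MC points by a narrow margin.

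Although both genes mark the same cell, their levels had negative correlations in these libraries, none of which passed adjustment. Over the 8 female libraries Pearson's r of the log2 levels was -0.68 (exact permutation test, two-sided, p = 0.0561) and Spearman's rho -0.50 (p = 0.216). Over the 8 male libraries r was -0.51 (exact permutation test, p = 0.196) and rho -0.45 (p = 0.267). Pooled over all 16 libraries r was -0.56 (permutation test, p = 0.0241) and rho -0.52 (p = 0.0430). Adjusted over these 3 sets of libraries, the p-values of r were 0.0842, 0.196 and 0.0722, and those of rho 0.267, 0.267 and 0.129. Without the 2 libraries farthest from the median of ADIPOQ, r was -0.36 in females, -0.52 in males and -0.62 over all. The female value rested on the third replicate of FC, and r was -0.27 without it. The male value was -0.07 with median-of-ratios scaling (exact permutation test, p = 0.865), -0.29 with TPM rescaled without mitochondrial transcripts and -0.19 without the first replicate of MFGR, so in males it depended on the scaling. The pooled value was -0.45 without the third replicate of FC. Each set holds control and growth-restricted fetuses, and libraries were permuted across both. The correlations thus hold differences between groups as well as between fetuses. After subtraction of the group means, r over the 16 libraries was -0.51.

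**Figure D4:**
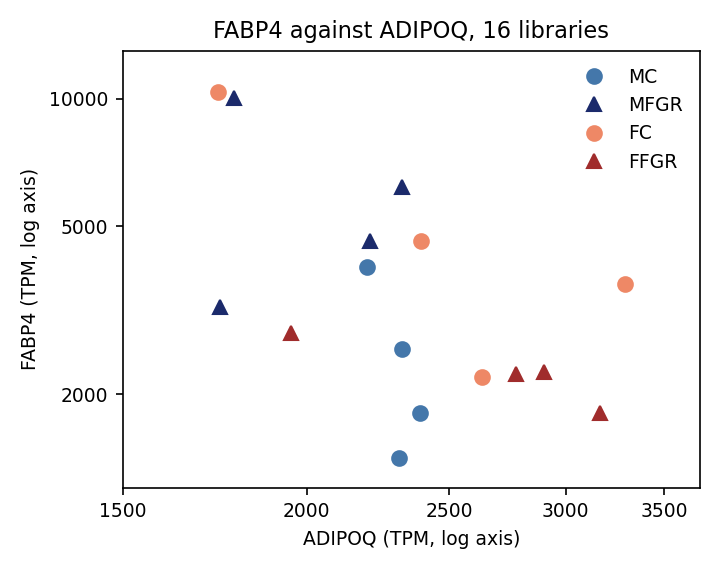
FABP4 against ADIPOQ in TPM, both on log axes, with 1 point per library, circles for control and triangles for growth-restricted fetuses. The highest FABP4 values, 10369 TPM in FC and 10071 TPM in MFGR, belong to libraries with ADIPOQ of 1741 and 1786 TPM.

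The other marker transcripts divided between both genes. Of the named marker and mitochondrial transcripts, the closest to FABP4 over the 16 libraries on log2(TPM + 1) were UCP1 (r = 0.60), the uncoupling protein of brown fat, leptin (0.56), the satiety hormone secreted by adipocytes, and COX2 (0.38), a mitochondrially encoded subunit of cytochrome c oxidase. The closest to ADIPOQ were a THY1 transcript, ENSOART00020024873 (0.66), from the gene of a surface protein of preadipocytes and stromal cells, CIDEA-201 (0.59), from the gene of a lipid droplet protein typical of brown fat, and ATP6 (0.56), a mitochondrially encoded subunit of ATP synthase. Of all tested transcripts, ENSOART00020011083 (0.86) and ENSOART00020036138 (0.85) were closest to FABP4, and ENSOART00020034536 (0.88) and ENSOART00020016568 (0.87) to ADIPOQ. The table gives no gene names for these 4. These values hold differences between groups as well as between fetuses.

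After subtraction of the group means, FABP4 varied with UCP1 (r = 0.76) and leptin (0.75) and against the THY1 transcripts ENSOART00020024826 (-0.70) and ENSOART00020024873 (-0.66). ADIPOQ varied with the same THY1 transcripts, at 0.69 and 0.61, and had r of -0.38 with UCP1 and -0.40 with leptin. For each of the 7 other marker transcripts the r with FABP4 and the r with ADIPOQ had opposite signs. These r are descriptions over the same 16 libraries, and all share the total to which TPM are scaled.

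**Figure D5:**
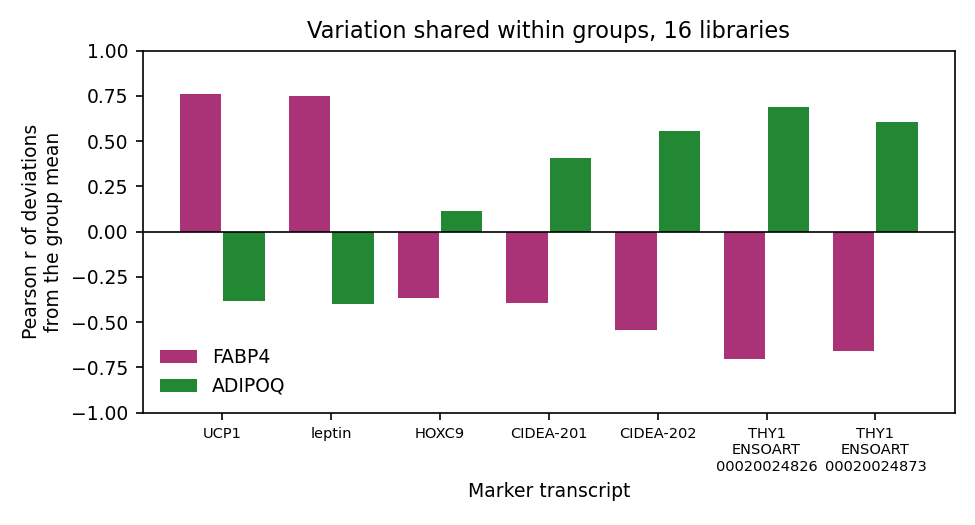
Pearson r between the deviations from the group mean of FABP4 or ADIPOQ and those of 7 other marker transcripts over 16 libraries, on log2(TPM + 1). UCP1 and leptin have r of 0.76 and 0.75 with FABP4, the THY1 transcripts have r of 0.69 and 0.61 with ADIPOQ, and each marker has opposite signs for the pair. FABP4 and ADIPOQ have r of -0.51 with each other.

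THY1 served as the marker of preadipocytes and stroma beside FABP4. The summed level of both THY1 transcripts was 36.9 to 81.7 TPM in MC and 17.4 to 39.2 TPM in MFGR, and 27.4 to 88.7 TPM in FC and 14.9 to 84.5 TPM in FFGR. Both transcripts were detected in every library. In MFGR against MC the log2 differences were -1.26 for ENSOART00020024826 (limma adjusted p = 0.184) and -1.06 for ENSOART00020024873 (0.264), neither of them called. In each of the 4 groups, the library with the highest FABP4 had the lowest THY1 sum and the highest leptin of its group. In MC this was the second replicate, with a THY1 sum of 36.9 TPM and leptin of 47.9 TPM. The FC library highest in FABP4 had a THY1 sum of 27.4 TPM, leptin of 46.3 TPM and the highest UCP1 of all libraries, 4430 TPM. The first replicate of MFGR had a THY1 sum of 17.4 TPM and leptin of 38.1 TPM. In FFGR the second replicate, with a THY1 sum of 14.9 TPM and leptin of 16.9 TPM, had the highest FABP4 and the lowest ADIPOQ of its group. ADIPOQ was also lowest in this library of MC and of FC, though not of MFGR. UCP1 was highest in the library with the highest FABP4 in MC and FC only. In MFGR that library had 2292 TPM of UCP1, against 2889 TPM in the second replicate. In FFGR it had 2327 TPM, against 3441 TPM in the fourth. The part of tissue composition in the FABP4 differences was not tested.

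Of the 7 other marker transcripts, 5 reached the filter and 0 were called in MFGR against MC or in FFGR against FC. An unadjusted limma p under 0.05 was reached in males by both THY1 transcripts, which belong to 1 gene, and by 17.7% of all transcripts. In females it was reached by CIDEA-201 and leptin, and by 7.37% of all transcripts. UCP1 had log2 differences of 0.24 in males and -0.09 in females. Leptin had -0.34 in males (limma adjusted p = 0.683) and -0.93 in females (0.648), where its 4 FFGR libraries lay between 9.96 and 16.9 TPM and its FC libraries between 17.9 and 46.3 TPM. Those ranges did not overlap, as was the case for 3.85% of all transcripts. The median over the 5 tested markers was -0.34 in males and -0.42 in females, and that over all 4574 transcripts was -0.02 in both. In MC against FC 1 of the 5 was called, the THY1 transcript ENSOART00020024873, at a log2 difference of -2.21 (limma adjusted p = 0.00179), beside 28.8% of all transcripts. The other THY1 transcript had the opposite sign there, 1.15 (limma adjusted p = 0.0587), and the THY1 sums were 63.4 ± 18.9 TPM in MC and 61.8 ± 25.9 TPM in FC (SD, n = 4). In MFGR against FFGR 2 of the 5 were called, beside 30.1% of all transcripts. These were ENSOART00020024873 at -2.85 and CIDEA-201 at -0.67 (limma adjusted p = 0.0013), both lower in males, and ENSOART00020024826 had 0.37 (limma adjusted p = 0.541). Since ENSOART00020024873 passed the filter only through female libraries, its calls as lower in males are no independent support for a difference between the sexes.

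FABP4 belongs to a list of PPAR signaling transcripts that the study drew from its own comparison of MFGR with MC. The list was thus chosen on these libraries and is no independent evidence of its direction. All 4 of its transcripts had a positive log2 difference in MFGR against MC, with a median of 1.26, against -0.02 over all transcripts. Of the 4, 1 was called higher and 0 lower, beside 0.219% of all transcripts called higher, and the one called was not FABP4. In FFGR against FC 0 of the 4 were called, beside 0% of all transcripts. The median was -0.45, against -0.02 over all. In MC against FC 0 were called, beside 28.8% of all transcripts, and the median was -0.65, against -0.20 over all. In MFGR against FFGR 2 were called higher, FABP4 and the one called in males, beside 6.49% of all transcripts. FABP4 had r of 0.33 to 0.85 over the 16 libraries with the 3 other transcripts of the list, and the one called in males was at 0.33, or -0.18 after subtraction of the group means. ADIPOQ was not on this list, and it had r of -0.71 to -0.17 with the 3 transcripts listed beside FABP4.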

How the data were processed

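RNA of perirenal adipose tissue from 16 sheep fetuses, 4 per group, was analysed. Per the labels and methods, the authors checked and filtered reads by quality (FastQC 0.11.9) and estimated transcript abundance in Salmon (version not given in the sources used here) against Ensembl transcripts of Oar_rambouillet_v1.0. The authors deposited TPM for 35219 transcripts, with group and fetus number in the column names. FABP4, ADIPOQ and the other markers were matched through the transcript identifiers the study prints. The table pairs no identifier with a gene and the RefSeq table used matched 0, so lists of other adipocyte genes, and further transcripts of both genes, were not analysed here. TCF21 is printed with the identifier of CIDEA-202 and was left out.

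For tests, TPM were turned into log2(TPM + 1) and fitted with limma 3.58.1 under R 4.3.3, using trended variance, 1 mean per group, 12 residual degrees of freedom and at least 20 TPM in at least 3 libraries, and p-values were adjusted over all 4574 transcripts. The fit was tested on simulated data. HOXC9 and CIDEA-202 lie under the filter. Ratios were tested with exact permutation tests (scipy 1.17.1), the pooled correlation with 100000 resamples. Named transcripts were both genes, the study's markers, its PPAR list and the transcripts closest to each gene. Members, lists and alternatives were chosen with earlier results of these data known. The alternatives were another pseudocount, other filters, scalings and libraries, and a replicate block.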

Additional observations from a re-analysis of the deposited data

Results flagged for a closer look

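The response of the FABP4 to ADIPOQ ratio to growth restriction differed between males and females by 2.58 on the log2 scale (exact permutation within each sex, two-sided, p = 0.00612, and 0.0490 adjusted over 8 exact tests). The relabelling assumes no effect in either sex, so the p is not one for equal effects in both. The log2 ratio was higher in MFGR than in MC by 1.49 and had a difference of -1.10 in FFGR against FC. Leaving out any 1 library gave 2.01 to 2.95. No library of FABP4, ADIPOQ or their ratio stood apart from the other 3 of its group by Dixon's criterion at the 95% level.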

How the results depend on the processing

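Of 334 alternative values with a test for FABP4, ADIPOQ, their ratio and their correlation, 309 kept their direction and their side of the threshold. Another 48, the ratio without 1 library, were not tested and kept their direction. With medians in place of means, the log2 ratio differences were 1.37 in MFGR against MC and 1.57 in MFGR against FFGR (exact permutation p = 0.0571 for both). With no filter, the FABP4 difference in MFGR against FFGR was 1.29 and no longer called, and leaving out 1 library gave 1.00 to 1.55. For FABP4 in MC against FC leaving out 1 library gave -1.30 to -0.56. ADIPOQ in MC against FC turned to 0.11 with median-of-ratios scaling, to 0.042 rescaled without mitochondrial transcripts and to 0.052 without the first replicate of FC, the top of a range from -0.25. In FFGR against FC leaving out 1 library gave ADIPOQ differences of -0.049 to 0.26, negative without the third replicate of FC. Averaged over both sexes, FABP4 turned to -0.016 without the second replicate of FC (range up to 0.36), and ADIPOQ to 0.027 without the first of FC and 0.030 without the second of FFGR (range down to -0.13). The pooled correlation was -0.44 with median-of-ratios scaling and -0.48 rescaled without mitochondrial transcripts, and -0.65 to -0.45 without 1 library. In females it was -0.76 with median-of-ratios scaling and -0.83 to -0.27 without 1 library, and in males it was -0.07 with median-of-ratios scaling and -0.75 to -0.19 without 1 library. The cause of these changes was not tested.

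The count of transcripts called in MFGR against MC was 21, 10 higher and 11 lower. It was 8 with a filter at 1 TPM, 4 with no filter, 37 with median-of-ratios scaling, 112 rescaled without mitochondrial transcripts (21 higher and 91 lower, with the median of all transcripts at -0.14 in place of -0.02), 5 with only the groups compared (5 higher and 0 lower), 7 with the replicate block and 1 to 83 without 1 library (83 without MC replicate 2, 1 without MC replicate 3, 2 to 11 without MC replicate 1 or 4 or MFGR replicate 1, 2 or 3, and 36 without FC replicate 3). At 1 TPM and with no filter, 4 and 5 were called in FFGR against FC (main 0), 3106 and 2741 in MC against FC (1318), 3654 and 3306 in MFGR against FFGR (1376), and 2 and 2 for the difference between responses (0, and 0 to 2 without 1 library, at 2 without MC replicate 2). Counts with an unadjusted p under 0.05 were 337 in FFGR against FC and 511 for the difference between responses. In MC against FC, 285 were called higher and 1033 lower, 450 and 800 rescaled without mitochondrial transcripts, and 553 and 704 with median-of-ratios scaling, which moved the median of all transcripts from -0.20 to -0.01. In MFGR against FFGR these were 297 and 1079, and 571 and 783.

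The replicate numbers did not pair the fetuses, since deviations of same-numbered libraries correlated at -0.12 to 0.27 and 4 of 16 correlated best with their own number. With the replicate block, FABP4 had an adjusted p of 0.208 in MFGR against MC and 0.0492 in MFGR against FFGR, and no call of FABP4 or ADIPOQ changed. The ratio was not tested with a block. Without 1 library, the ratio was not put to an exact test, and only its differences are given. The log2 differences then ran from 1.14 to 1.79 in MFGR against MC, 1.36 to 1.96 in MFGR against FFGR, -1.47 to -0.52 in FFGR against FC and -1.25 to -0.30 in MC against FC. TPM hide the depth, so the precision rests on the spread between fetuses.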
